A study of Mus musculus with 4 samples.

Results

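The spots described here are those richest in transcripts of 5 fibroblast genes, Col1a1, Col3a1, Dcn, Postn and Pdgfra, in 4 spatial transcriptome sections of MC38 tumors. Each spot of at least 5000 UMIs (unique molecular identifiers, each marking 1 captured RNA molecule) was scored by the share of its UMIs that came from these genes. Members were chosen by this share as the top 10% of spots within a section, which gave 1179 of the 11947 spots in the series. They are called top 10% spots below, and were compared with the 5898 spots in the lower 50% of the same sections. A spot is a small area of tissue that can hold several cells, so the share marks an area and not a cell type, and more fibroblasts in a spot cannot be told apart from more matrix RNA per fibroblast.

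The tumors came from MC38, a colon carcinoma cell line derived from C57BL/6 mice, injected under the skin of female mice aged 8 to 12 weeks. CC075F1 hosts were the offspring of C57BL/6J and CC075/UncJ parents and CC080F1 hosts of C57BL/6J and CC080/TauUncJ parents, and the study classed CC075F1 as a responder and CC080F1 as a non-responder to anti-PD-1. All 4 mice received 200 µg of isotype control antibody when the tumor measured 75 to 110 mm3 and were killed 48 h later, so no section came from a treated tumor. There were 2 sections per strain, labelled as biological replicates, and the protocol places sections of 4 tissue blocks on a Visium slide without saying whether these 4 shared it. No batch or date was given. Values of the sections are listed in the order CC075F1 replicate 1, CC075F1 replicate 2, CC080F1 replicate 1 and CC080F1 replicate 2.

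Fibroblasts lay down and remodel the extracellular matrix. They secrete fibrillar collagens, crosslink them with lysyl oxidases, coat them with small proteoglycans such as decorin, and release chemokines and growth factors. In tumors they often lie in bands around or between nests of malignant cells, near vessels and macrophages. TGF-beta and PDGF are well known drivers of their matrix production and growth.

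The top 10% class held 265, 325, 277 and 312 spots. The 5 genes made up 0.182%, 0.0885%, 0.275% and 0.243% of the UMIs of whole sections, and a median of 0.321%, 0.293%, 0.411% and 0.424% in the top 10% spots against 0.129%, 0.0515%, 0.223% and 0.184% in the lower 50% spots. The class had no natural border, since the last spot inside and the first outside had shares of 0.281% and 0.281%, 0.182% and 0.181%, 0.374% and 0.374%, and 0.356% and 0.356%. Lower 50% spots of the CC080F1 sections reached 0.273% and 0.234%, above the share at which the class of CC075F1 replicate 2 began, so the classes rank spots within a section and not between sections.

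Col3a1, a fibrillar collagen of soft connective tissue, had the largest share of the 5 genes in every section. It gave 66.3%, 42.6%, 74.0% and 55.9% of the 5-gene UMIs of the top 10% spots, and stood at 2226, 1647, 3127 and 2688 UMIs per 1000000 (CPM) there. Dcn, the proteoglycan decorin, gave a further 26.6%, 11%, 16.8% and 21.6%. Col1a1, the main collagen of scar and stroma, differed far more between sections, at 108, 1376, 140 and 787 CPM in the top 10% spots against 36.9, 16.6, 41.4 and 41.4 CPM in the lower 50% spots. Postn, a matricellular protein of activated fibroblasts, followed the same order, at 47.0, 397, 126 and 225 CPM. In CC075F1 replicate 1 it was detected in 27.2% of the top 10% spots and in 38.6% of the lower 50% spots. Pdgfra stood at 83.8, 24.6, 125 and 75.3 CPM against 41.7, 14.4, 77.4 and 43.3 CPM. It was detected in 86.8%, 41.5%, 97.5% and 73.7% of the top 10% spots and in 68.1%, 50.2%, 88.0% and 76.2% of the lower 50% spots, less often in the top 10% spots of both replicate 2 sections. These values chose the spots and are given as a description only.

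The fibroblast label was checked against 9 fibroblast and matrix genes that the ranking did not use. Col1a2, the partner chain of Col1a1 (GRCm38 chromosome 6, 4504814 to 4541544), stood at 119, 1747, 137 and 838 CPM in the top 10% spots and at 48.5, 26.0, 28.8 and 40.9 CPM in the lower 50% spots. Bgn, the proteoglycan biglycan, stood at 45.9, 758, 70.7 and 241 CPM against 26.8, 12.9, 30.0 and 26.0 CPM. Both genes were higher in all 4 sections, by more in the replicate 2 than in the replicate 1 sections. Of the 9 genes, 8 were higher in all 4 sections, the exception being Pdpn, which encodes podoplanin. The share over all genes tested was 13.7% on the same scale. In the tests given further below, edgeR called 0 of the 9 higher with all sections and 2 without CC075F1 replicate 2, and DESeq2 called 4.

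In CC075F1 replicate 1 the label was not borne out for most of the class. Col1a2 was detected in 30.9% of its top 10% spots but in 50.1% of its lower 50% spots, whereas in the other sections the shares were 99.1%, 58.5% and 72.8% against 50.1%, 42.8% and 44.5%. Its 27 top 10% spots within 3 steps of the tissue edge held 978 CPM of Col1a2, the 238 others 64.7 CPM, and the 150 in patches of at least 10 spots 31.9 CPM, below the 48.5 CPM of the lower 50% spots. Thy1, a fibroblast surface protein that T cells also carry, stood at 22.7 against 21.2 CPM there. These areas are therefore named by their rule. Median depth was 30378, 24683, 31645 and 23719 UMIs in the top 10% spots against 32173, 51696, 33806 and 36835 in the lower 50% spots, lower in 4 of 4 sections (two-sided exact permutation test over sections, p = 0.125, the smallest that 4 pairs allow). Spots with fewer UMIs give noisier shares, and the part of depth in the ranking was not tested.

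**Figure D1:**
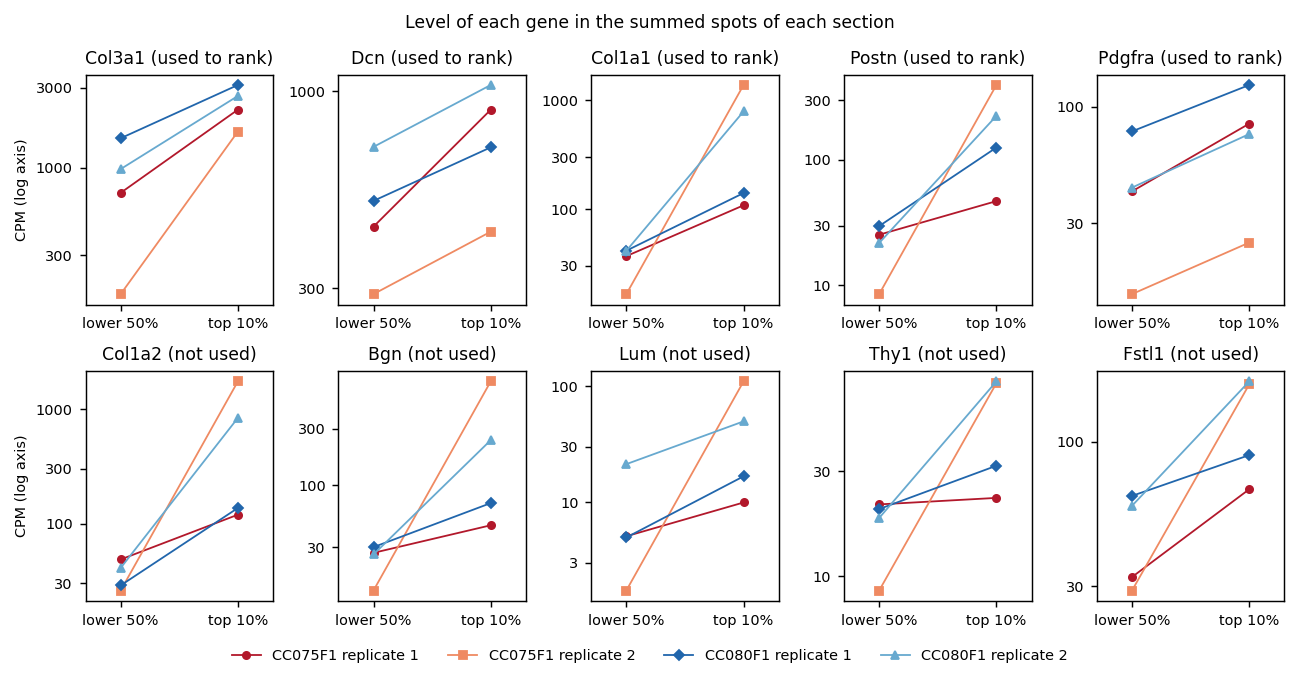
Level in CPM on log axes of 5 genes used for the ranking (upper row) and 5 that were not used (lower row), in the summed lower 50% and top 10% spots, with 1 line per section. Col1a1, Postn, Col1a2 and Bgn separate the replicate 2 sections (squares and triangles) from the replicate 1 sections, for example 1747 and 838 against 119 and 137 CPM for Col1a2 in the top 10% spots.

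The top 10% spots were gathered in patches. Of their adjacent spots, 39.4%, 56.1%, 34.4% and 39.0% were themselves top 10% spots, against 1.85%, 1.55%, 2.69% and 3.16% of the spots adjacent to lower 50% spots. The mean difference was 39.9 ± 10.1 percentage points (SD, n = 4 sections), in the same direction in all 4 sections (two-sided exact permutation test, p = 0.125). The spots fell into 67, 60, 107 and 121 patches, of which 38, 35, 68 and 79 were single spots, and the largest patch held 52, 156, 71 and 54 spots. The CC075F1 sections had fewer patches than the CC080F1 sections, with 56.6% and 67.4% against 29.2% and 38.8% of their top 10% spots in patches of at least 10, a difference for which an exact permutation test of 2 sections against 2 cannot go below p = 0.333.

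Where the patches lay differed between sections. Of the top 10% spots, 10.2%, 72.9%, 35.7% and 41.3% were within 3 steps of the tissue edge, against 25.6%, 10.9%, 37.4% and 18.6% of the lower 50% spots. The difference of 16.9 ± 33.9 percentage points (SD, n = 4 sections) was positive in both replicate 2 sections and negative in both replicate 1 sections (two-sided exact permutation test, p = 0.5). In CC075F1 replicate 2 they formed a rim along the tissue border, and in CC075F1 replicate 1 a set of patches inside the tumor. Skin, muscle or fat genes passed 1% of UMIs in 39 top 10% spots of CC075F1 replicate 2 and 2 of CC080F1 replicate 2, and in no lower 50% spot of any section.

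**Figure D2:**
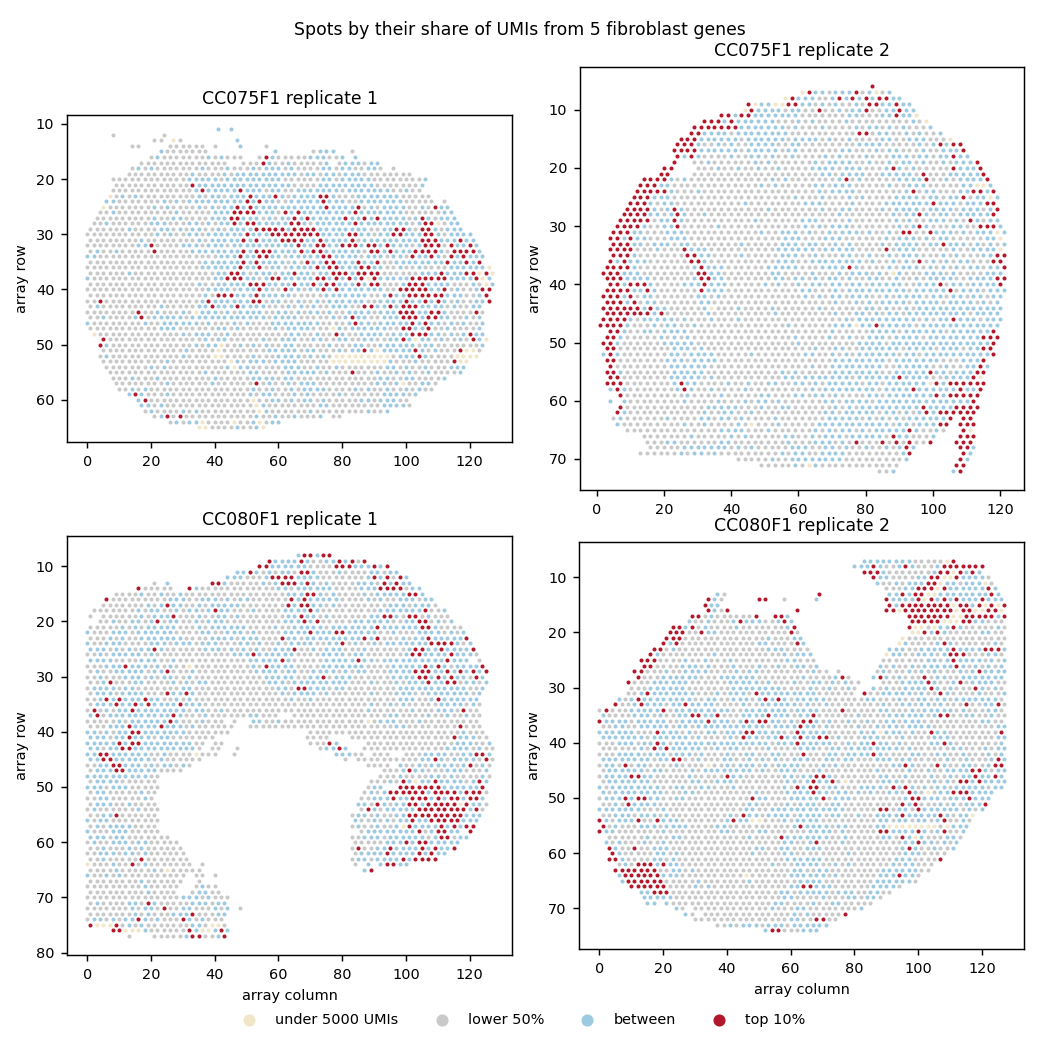
Every spot of the 4 sections at its array row and column, with the top 10% spots by 5-gene share in red, the lower 50% in grey and the spots between them in blue. The red spots line the border of CC075F1 replicate 2 (72.9% within 3 steps of the edge) and lie inside CC075F1 replicate 1 (10.2%).

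Gene by gene, the summed UMIs of each class and section were compared within sections by edgeR's quasi-likelihood test over 13478 genes, without the 5 ranking genes. No gene was called higher (0%) or lower (0%) at a Benjamini-Hochberg adjusted p of 0.05, the smallest adjusted p being 0.135, while 3074 genes (22.8%) had an unadjusted p under 0.05. The DESeq2 Wald test on the same sums called 309 genes higher (2.29%) and 439 lower (3.26%). CC075F1 replicate 2 stood apart in many of the genes below. Without it, edgeR called 15 genes higher (0.111%) and 5 lower (0.0369%), and without it and without spots near the edge, an alternative added after seeing the data that leaves 599 top 10% and 3124 lower 50% spots, it called 371 higher (2.82%) and 467 lower (3.55%). Between DESeq2 and the last of these, 178 genes were called higher in both and 332 lower in both, 68.2% of the DESeq2 calls and 60.9% of the others, and 0 in opposite directions. The spots of the last are all among those DESeq2 used, so the shared calls and directions are not independent.

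Since no gene passed the main test, the members of each gene list are given by their values and by how many were higher or lower in all 4 sections. Over all genes tested, 1843 (13.7%) were higher and 2725 (20.2%) lower in all 4 sections on the scale of the test, which uses TMM factors. With plain CPM the split turned to 29.0% higher and 6.28% lower, and the median log2 difference of all genes moved from -0.01 to 0.13. Counts of members below are read against these shares.

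Collagen genes other than the ranking ones were higher as a group. Of 17 tested, 11 were higher in all 4 sections and 0 lower, with a median log2 difference of 0.57 against -0.01 over all genes, and DESeq2 called 8 of them higher and 0 lower. Summed, the collagens of the list stood at 3138, 4238, 4392 and 4082 CPM in the top 10% spots and at 2255, 1021, 3127 and 2106 CPM in the lower 50% spots. The range over sections was narrower in the top 10% spots, from 3138 to 4392 CPM, than in the lower 50% spots, from 1021 to 3127 CPM.

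The collagen VI chains, which form the beaded filaments around cells, had a small spread between sections. Col6a1 stood at 633, 256, 1006 and 510 CPM in the top 10% spots against 384, 143, 700 and 338 CPM, a log2 difference of 0.53 ± 0.07 (SE, edgeR adjusted p = 0.135), and of 0.67, 0.52, 0.41 and 0.50 in the 4 sections. Col6a2, its neighbour on chromosome 10, differed by 0.57 ± 0.07 (edgeR adjusted p = 0.135). Col1a2 differed by far more and far less evenly, at 3.34 ± 0.81 (edgeR adjusted p = 0.135) with section values of 1.25, 5.75, 2.13 and 4.26. Col5a1, a minor chain of fibrillar collagen, lay between them at 0.95 ± 0.18 (edgeR adjusted p = 0.135). Col6a1, Col6a2 and Col5a1 were among the 15 genes called higher without CC075F1 replicate 2. Col7a1, the anchoring fibril collagen of skin, differed by 0.02 ± 0.07. The basement membrane chains Col4a1 and Col4a2 were lower in CC075F1 replicate 1, at log2 differences of -0.16 and -0.10, and higher in the other 3 sections.

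Of 22 tested enzymes and chaperones that build and crosslink collagen, 10 were higher in all 4 sections and 0 lower, with a median of 0.29. Lox and Loxl1, lysyl oxidases that crosslink collagen and elastin outside the cell, had the largest differences of the list that were higher in all sections. Lox stood at 6.63, 73.7, 11.7 and 72.2 CPM against 2.77, 0.879, 1.86 and 3.20 CPM (log2 difference 3.70 ± 0.80, edgeR adjusted p = 0.135), and Bmp1, the protease that trims procollagen, at 96.0, 95.3, 106 and 119 CPM against 56.3, 24.1, 66.6 and 59.5 CPM (0.96 ± 0.18). P4hb, a subunit of prolyl 4-hydroxylase, differed by 0.09 ± 0.08, Ppib by -0.01 ± 0.07 and the collagen chaperone Serpinh1 by 0.17 ± 0.09.

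Proteoglycans and other matrix proteins held the highest share of members raised throughout. Of 26 tested, 20 were higher in all 4 sections and 0 lower, with a median log2 difference of 1.90, and the same 20 and 0 were counted with plain CPM. DESeq2 called 8 higher, and the interior spots of the other 3 sections 15 higher and 1 lower. Fn1, fibronectin, stood at 511, 526, 562 and 949 CPM against 270, 215, 444 and 638 CPM (0.64 ± 0.13), and Fbn1, a microfibril protein, at 76.4, 185, 71.8 and 160 CPM against 44.3, 30.9, 42.2 and 54.3 CPM (1.29 ± 0.27). Sparc, a collagen-binding protein, reached 1418 and 924 CPM in the replicate 2 sections but only 336 and 585 CPM in the replicate 1 sections. Cthrc1, a secreted protein of activated fibroblasts, stood at 2.21, 59.5, 3.89 and 39.7 CPM against 0.812, 0.713, 0.920 and 1.27 CPM (4.02 ± 0.85, edgeR adjusted p = 0.135). As a group the secreted matrix genes followed the order of Col1a1 and not that of Col3a1, with the replicate 2 sections highest.

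The fibroblast identity list was mixed. Of 15 tested, 9 were higher and 1 lower in all 4 sections, with a median of 0.93. Pdgfrb, the PDGF receptor of fibroblasts and pericytes, stood at 32.7, 32.3, 77.5 and 64.2 CPM against 21.2, 8.31, 44.4 and 32.9 CPM (0.93 ± 0.17, edgeR adjusted p = 0.135), and Lrrc15, a surface marker of matrix-producing fibroblasts, at 4.54, 37.6, 4.35 and 11.6 CPM against 1.36, 0.368, 0.835 and 0.977 CPM (3.45 ± 0.78). Vim and S100a4, which fibroblasts share with many cells and which were by far the most abundant of the list, differed by -0.19 ± 0.09 and -0.16 ± 0.15. Twist2, a mesenchymal transcription factor, was the member lower in all 4 sections, at -0.39 ± 0.11. Because of Vim and S100a4 the summed list was near level, at 7347, 6224, 7849 and 7142 CPM against 7359, 6661, 7604 and 6377 CPM. Contractile genes such as Acta2, the smooth muscle actin of myofibroblasts, stood at 14.0, 83.2, 15.5 and 48.6 CPM against 9.32, 6.57, 14.6 and 12.9 CPM, with 3 of 11 list members higher in all 4 sections, or 7 with plain CPM.

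**Figure D3:**
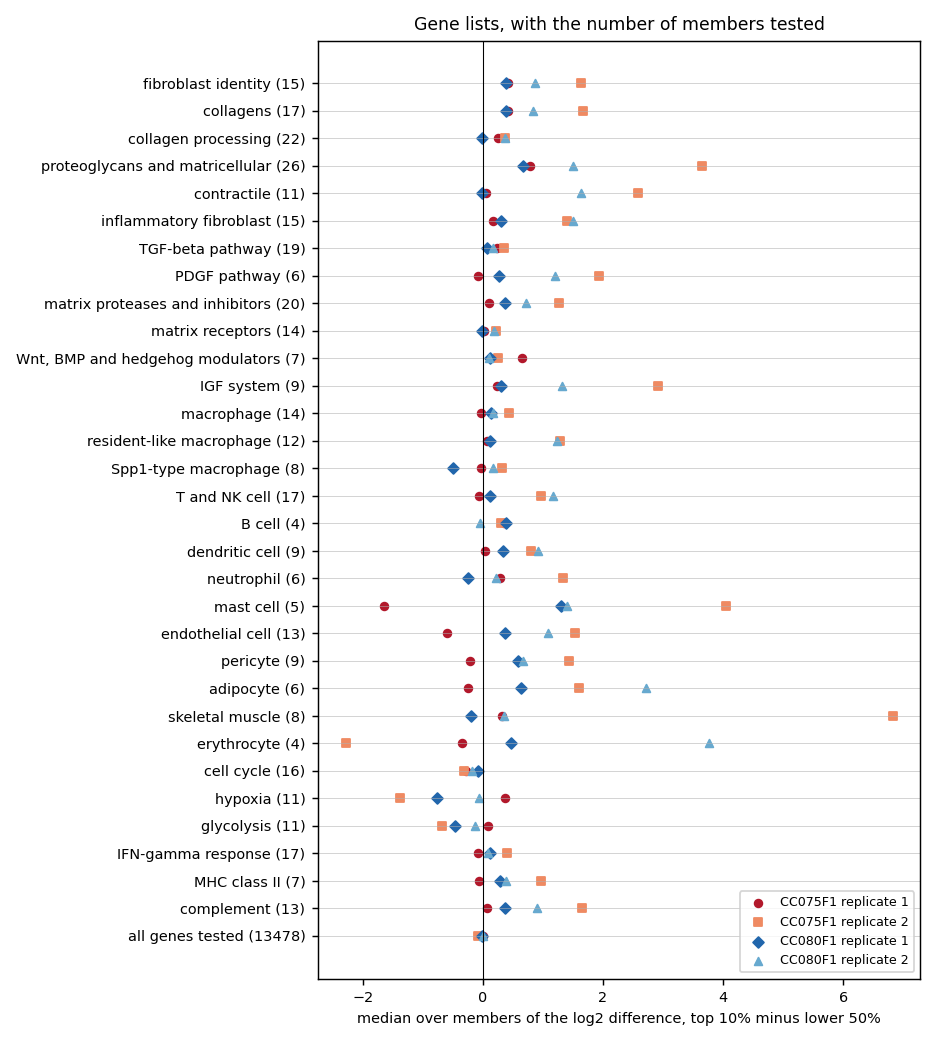
Median log2 difference between top 10% and lower 50% spots over the tested members of each gene list with at least 4 tested, with 1 point per section and the number of members in brackets. Matrix lists lie right of 0 in every section or nearly so (proteoglycans 0.78, 3.65, 0.66 and 1.49), endothelial cells lie left of 0 in CC075F1 replicate 1 alone (-0.60, 1.53, 0.36 and 1.07), and cell cycle genes lie left of 0 in all 4 (-0.28, -0.32, -0.09 and -0.18).

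Among growth factor pathways, the TGF-beta list had 9 of 19 members higher and 1 lower in all 4 sections (11 and 0 with plain CPM), with a median of 0.19. The ligand Tgfb3 stood at 98.8, 42.1, 86.2 and 104 CPM in the top 10% spots and 56.3, 13.6, 48.4 and 61.7 CPM in the lower 50% spots (0.85 ± 0.12, edgeR adjusted p = 0.135), and was called higher without CC075F1 replicate 2. Ltbp3, which binds latent TGF-beta, differed by 0.72 ± 0.14, and the receptor Tgfbr2 by 0.25 ± 0.06. The more studied ligand Tgfb1 was lower in CC075F1 replicate 1 and differed by 0.19 ± 0.11, and the inhibitor Smad7 by -0.18 ± 0.10. In the PDGF list, the receptor and the receptor-like gene Pdgfrl were the 2 members of 6 higher in all sections, while the ligand Pdgfa differed by -0.20 ± 0.12. Sfrp1 and Sfrp2, secreted Wnt antagonists, had large differences, at 4.03 ± 0.76 and 4.53 ± 0.81 (edgeR adjusted p = 0.135), from levels under 1 CPM in every lower 50% class. Gli1 and Ptch1, readouts of hedgehog signalling, differed by 0.02 ± 0.11 and -0.28 ± 0.12.

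Matrix-degrading genes and their inhibitors followed in part, with 6 of 20 higher and 0 lower in all 4 sections and a median of 0.56. Mmp2, a gelatinase of fibroblasts, stood at 95.6, 200, 208 and 177 CPM against 66.7, 59.2, 148 and 110 CPM (0.72 ± 0.18), and Mrc2, a collagen uptake receptor, at 14.1, 39.3, 24.3 and 38.0 CPM against 6.28, 3.97, 12.6 and 12.9 CPM (1.60 ± 0.35). Of 14 receptors through which cells bind matrix, 0 were higher and 1 lower in all 4 sections (4 higher and 1 lower with plain CPM). The one lower was Cd44, the hyaluronan receptor, at 185, 148, 200 and 216 CPM against 219, 152, 249 and 226 CPM (-0.31 ± 0.07, edgeR adjusted p = 0.135).

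The genes with the largest differences were taken by a fixed rule on size, mean level of at least 10 CPM and direction in all 4 sections. No gene met that rule's adjusted p, which was therefore dropped once the values had been seen. On the higher side these were Thbs4, Eln, Cthrc1, Cpxm2, Fhl1, Ccn5, Csrp3, Lox, Col1a2, Cpxm1, Sod3 and C1qtnf3, with log2 differences from 3.27 for C1qtnf3 to 4.70 for Thbs4. Several of them rested on CC075F1 replicate 2. Thbs4, a thrombospondin of tendon and muscle, stood at 0.859, 127, 1.72 and 2.03 CPM, and Csrp3, a protein of striated muscle, at 0.123, 107, 2.98 and 0.254 CPM. Skeletal muscle genes moved with them, as the 10-gene muscle list summed to 17.7, 2622, 30.9 and 12.0 CPM in the top 10% spots and to 6.96 to 30.1 CPM in the lower 50% spots. In the interior top 10% spots of CC075F1 replicate 2 the muscle list summed to 68.2 CPM, and Col1a2 there still stood at 1511 CPM. Elastin (Eln), at 1.96, 112, 8.13 and 21.6 CPM against 0.645, 0.451, 2.03 and 1.08 CPM, was higher by at least 1.47 on the log2 scale in every section.

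The summed macrophage list stood at 7756, 9209, 4807 and 5127 CPM against 6154, 4456, 3856 and 4119 CPM, higher in 4 of 4 sections, and 4 of 14 members were higher and 0 lower in all sections, or 5 and 0 with plain CPM. The median log2 difference was 0.20, and -0.03 in CC075F1 replicate 1. Apoe, a lipid carrier that macrophages secrete, stood at 2395, 1950, 1381 and 1028 CPM against 1362, 506, 960 and 733 CPM (0.79 ± 0.21), and Lyz2, lysozyme, at 2637, 2869, 1438 and 1747 CPM against 2127, 1452, 1120 and 1402 CPM (0.35 ± 0.10). Cd68, common to most macrophages, differed by 0.01 ± 0.06. Of the genes of the resident, matrix-associated type, Folr2 stood at 3.56, 9.05, 20.8 and 48.1 CPM against 1.84, 3.72, 15.1 and 20.4 CPM (0.83 ± 0.15, edgeR adjusted p = 0.135), and Ccl8, a monocyte-attracting chemokine, at 97.9, 487, 40.9 and 271 CPM against 98.5, 83.4, 20.5 and 56.6 CPM. Ccl8 was thus level in CC075F1 replicate 1 and higher in the other 3 sections.

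Spp1, osteopontin, which marks another macrophage state and is also made by tumor cells, showed the opposite direction with a small spread between sections. It stood at 104, 169, 125 and 291 CPM in the top 10% spots and 144, 199, 192 and 476 CPM in the lower 50% spots. With TMM factors, the log2 differences of -0.52, -0.56, -0.73 and -0.80 gave -0.66 ± 0.07 (edgeR adjusted p = 0.135). Spp1 was among the 5 genes called lower without CC075F1 replicate 2. Gpnmb, a lysosomal glycoprotein of the same list, differed by -0.39 ± 0.11, and the other 6 members of the list, among them Trem2 and Arg1, did not have 1 direction in all 4 sections. The list as a whole did not follow Spp1, with a median of 0.16. It summed to 447, 597, 502 and 752 CPM against 448, 474, 626 and 829 CPM.

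Complement genes had 8 of 13 members higher and 0 lower in all 4 sections, with a median of 0.73. C4b stood at 18.7, 41.5, 7.90 and 48.3 CPM against 11, 5.09, 3.62 and 10.7 CPM (1.68 ± 0.34) and the protease gene C1s1 at 7.12, 42.0, 11.2 and 38.3 CPM against 2.92, 1.51, 4.35 and 6.34 CPM (2.40 ± 0.56). The C1q chains, which macrophages make, were within 0.10 of level in both replicate 1 sections. T and NK cell genes had 4 of 17 higher in all sections, among them the granzymes Gzma and Gzmb. With plain CPM it was 5 of 17, near the 29.0% of all genes on that scale. The sum of the T and NK cell list was level in CC075F1 replicate 1, at 121 against 125 CPM, and 238, 39.3 and 117 against 101, 31.6 and 62.4 CPM in the others. The MHC class II list, which also held genes such as Ctss that are not MHC molecules, had 0 of 7 members in 1 direction throughout. All but Ctss were lower in CC075F1 replicate 1, by 0.04 to 0.49 on the log2 scale. With plain CPM 3 of the 7 were higher in all 4 sections.

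Endothelial genes split the sections. The list summed to 152, 411, 382 and 468 CPM in the top 10% spots and 215, 116, 277 and 210 CPM in the lower 50% spots, lower in CC075F1 replicate 1 and higher in the other 3 sections, and 0 of 13 members kept 1 direction in all 4. Pecam1, the adhesion molecule between endothelial cells, had log2 differences of -0.54, 1.55, 0.34 and 1.04. Pericyte genes gave the same picture, at 92.0 against 116 CPM in CC075F1 replicate 1. The 5-gene erythrocyte list, mainly hemoglobins, is a sign of blood in the tissue. It summed to 18.3, 139, 195 and 1110 CPM in the top 10% spots. In the lower 50% spots it summed to 22.5, 538, 131 and 89.2 CPM, so it too had no common direction.

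**Figure D4:**
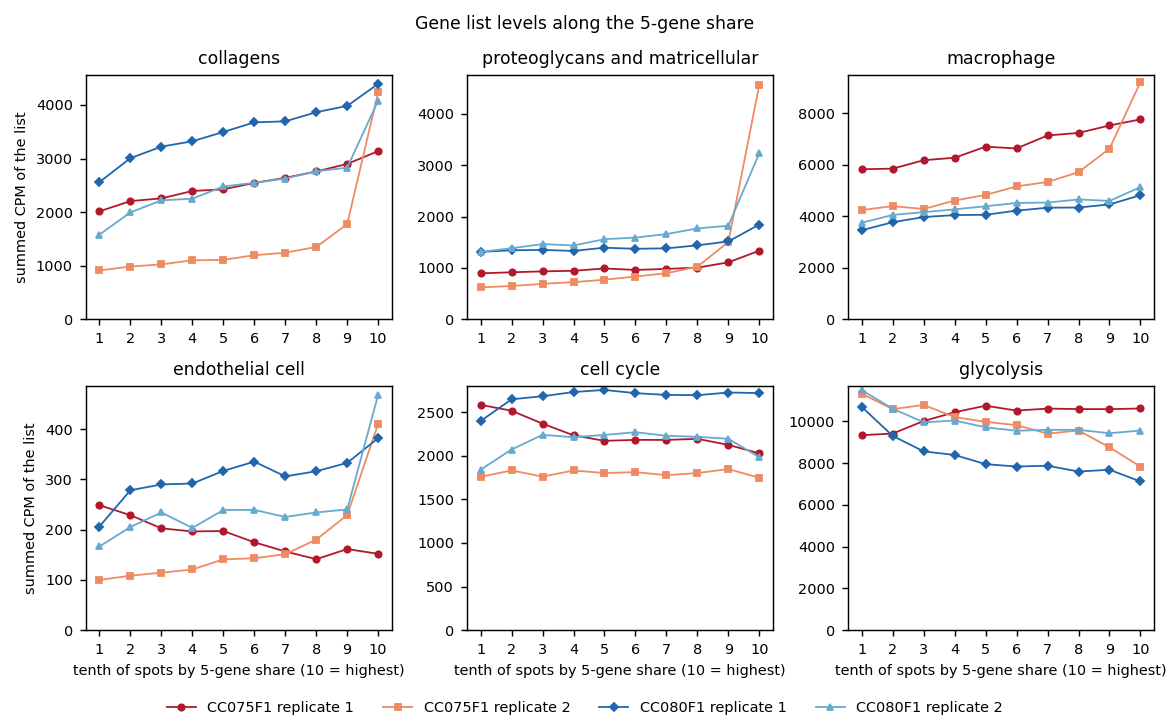
Summed CPM of 6 gene lists in 10 equal groups of spots ranked by 5-gene share (10 is the highest), with 1 line per section and axes from 0. Collagens rise in every section, from 2255, 1021, 3127 and 2106 CPM over the lower 50% to 3138, 4238, 4392 and 4082 CPM in the highest group. In CC075F1 replicate 2 most of this rise is in the highest group, since the spots between the classes stood at 1365 CPM. Proteoglycans step up mainly in the highest group, and endothelial genes decline along the ranking in CC075F1 replicate 1.

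Proliferation genes lay on the lower side. Of 16 cell cycle genes, 0 were higher and 12 lower in all 4 sections, with a median of -0.22, but only 3 were lower in all 4 with plain CPM, under which the list sum was 2029, 1748, 2722 and 1984 CPM against 2379, 1797, 2646 and 2123 CPM. Bub1, a mitotic checkpoint kinase, differed by -0.44 ± 0.11, Top2a by -0.26 ± 0.09 and Mki67 by -0.12 ± 0.07. Glycolysis genes had 4 of 11 lower in all 4 sections and 0 higher, and 0 lower with plain CPM. Eno1 differed by -0.49 ± 0.15 and Gapdh by -0.36 ± 0.12. Hypoxia genes had no common direction, with section medians of 0.36, -1.38, -0.77 and -0.07.

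The genes lower by the same rule on size were Gzmg, Gadd45a, Hspa1b, Chac1, Rgs1, Ppp1r15a, Ero1l, Trib3, Stbd1 and Cox6a2, with log2 differences from -0.76 for Cox6a2 to -1.11 for Gzmg. Gadd45a, Chac1, Ppp1r15a and Trib3 are genes of the integrated stress response. Trib3 stood at 46.4, 40.4, 24.2 and 55.4 CPM in the top 10% spots and 53.7, 83.0, 42.4 and 96.3 CPM in the lower 50% spots (-0.86 ± 0.17, edgeR adjusted p = 0.135). Gadd45a stood at 14.9, 16.3, 13.4 and 17.7 CPM against 18.5, 33.1, 24.2 and 51.1 CPM (-1.09 ± 0.20), level across the top 10% classes and varying in the lower 50% classes. Hmga1, a chromatin protein of proliferating tumor cells, had a smaller difference and less spread, at 36.3, 47.3, 43.0 and 51.9 CPM against 49.2, 48.0, 57.4 and 67.2 CPM (-0.46 ± 0.06), and was called lower without CC075F1 replicate 2, as were Epha2 and Pim3. Of the 8-gene list for the tumor cells, Shisal2b, Krt7 and Cdh1 passed the filter on low counts, with differences in no common direction, and Epcam, Cldn7, Krt8, Krt18 and Krt19 did not pass.

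A second comparison took lower 50% spots by their distance from the top 10% spots. Lower 50% spots touching a top 10% spot (116, 113, 173 and 240) were compared with lower 50% spots at least 3 steps away (1016, 1317, 924 and 923). The near spots had slightly higher 5-gene shares, with medians of 0.139%, 0.0583%, 0.244% and 0.197% against 0.127%, 0.0502%, 0.212% and 0.178%, so that part of any difference follows from how the classes were made. Their median depth was lower, at 29218, 32689, 32020 and 31324 UMIs against 32989, 54576, 33693 and 39224 UMIs, and the part of depth was not tested. Of 13028 genes, 1 was called higher (0.00768%) and 0 lower (0%) by edgeR, DESeq2 called 9 higher (0.0691%) and 0 lower (0%), and 873 genes (6.70%) had an unadjusted p under 0.05 by edgeR. In all 4 sections, 864 genes (6.63%) were higher near and 1207 (9.26%) lower.

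The gene called was Ccl8 (GRCm38 chromosome 11, 82115185 to 82116799). It stood at 139, 197, 31.0 and 87.3 CPM near and 93.2, 69.1, 16.9 and 47.7 CPM far, higher near in all 4 sections although the near and far values overlapped between sections. The log2 difference was 0.90 ± 0.10 (edgeR adjusted p = 0.044). Its level declined with distance in 3 sections, from 197 at 1 step to 55.2 CPM at 5 or more steps in CC075F1 replicate 2, from 31.0 to 13.7 CPM in CC080F1 replicate 1 and from 87.3 to 37.1 CPM in CC080F1 replicate 2, and in CC075F1 replicate 1 from 139 to 88.4 CPM at 4 steps and 94.9 CPM beyond. The call was lost without either CC080F1 section, with interior spots alone and with far spots set at 5 or more steps.

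Col1a2 was the next gene, at 93.0, 96.8, 48.4 and 85.9 CPM near against 42.5, 16.7, 25.5 and 27.3 CPM far (1.51 ± 0.18, edgeR adjusted p = 0.055). Cthrc1 followed with 2.06, 4.07, 1.77 and 4.01 CPM against 0.525, 0.451, 0.604 and 0.573 CPM (2.42 ± 0.30, edgeR adjusted p = 0.055). Both had their highest level at 1 step in every section. MHC class II genes had 5 of 7 members higher near and 0 lower in all 4 sections, with a median of 0.40, for example H2-Ab1 at 832, 715, 157 and 192 CPM against 804, 338, 89.6 and 150 CPM (0.50 ± 0.11, edgeR adjusted p = 0.485). Endothelial genes had 6 of 13 higher near, complement genes 6 of 13, proteoglycans 8 of 24 and collagens 6 of 16, with 0 lower in each. Of the erythrocyte list, 2 of 4 members tested were lower near in all 4 sections. None was called by either tool, and 4 were called lower by edgeR without the low-count filter. The median of the list was above 0 in CC080F1 replicate 1 (0.09). Hba-a2 stood at 1.77, 5.65, 12.1 and 4.26 CPM against 2.29, 51.1, 12.4 and 9.39 CPM.

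**Figure D5:**
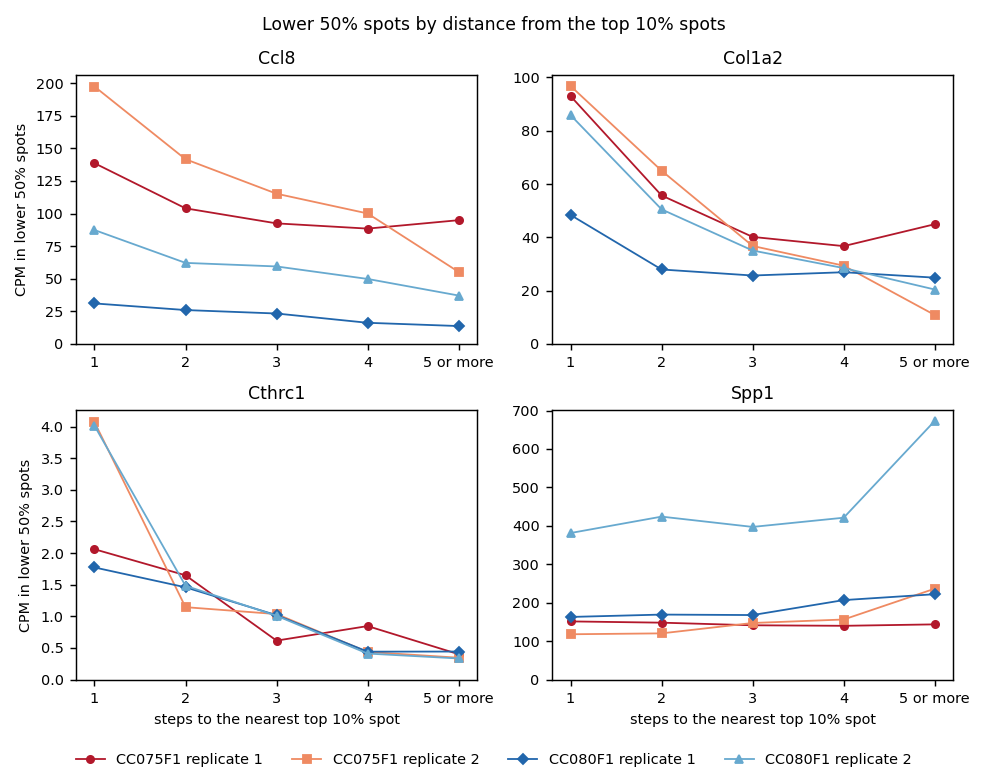
CPM of 4 genes in lower 50% spots at 1, 2, 3, 4 and 5 or more steps from the nearest top 10% spot, with 1 line per section and axes from 0. Ccl8, Col1a2 and Cthrc1 are highest at 1 step in all 4 sections (Ccl8 139, 197, 31.0 and 87.3 CPM), while Spp1 lies higher at 5 or more steps than at 1 step in 3 sections and is level in CC075F1 replicate 1.

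Between the strains, the difference of top 10% from lower 50% spots was tested as an interaction, and 0 of 13478 genes (0%) were called by edgeR, with 74 at an unadjusted p under 0.05 and 2 called by DESeq2, Mb and Hspb7. The genes with the largest interaction were those of muscle, which CC075F1 replicate 2 alone carried (Acta1 at 0.246, 1027, 5.61 and 0.254 CPM in the top 10% spots), and of blood, which CC080F1 replicate 2 carried (Hbb-bs at 10.1, 83.3, 110 and 554 CPM).

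The levels of the top 10% spots themselves were compared between the strains over 12524 genes. By edgeR 0 genes were higher (0%) and 0 lower (0%) in CC075F1, with 315 at an unadjusted p under 0.05. With plain CPM in place of TMM the median of all genes moved from -0.02 to -0.25 and edgeR called 3 genes, H2-Eb1, Cd74 and Ifi202b. DESeq2 called 27 higher (0.216%) and 4 lower (0.0319%). MHC class II genes had a median log2 difference of 2.41 with 5 of 7 members called higher in CC075F1 by DESeq2. The medians of skeletal muscle (6.54) and erythrocyte genes (-3.01) were further from 0, with no member called. Cd74, the invariant chain, stood at 2208 and 2772 CPM in CC075F1 against 351 and 528 CPM in CC080F1 (edgeR log2 difference 2.75 ± 0.41, adjusted p = 0.965), and H2-Eb1 at 725 and 870 against 56.7 and 96.8 CPM (3.62 ± 0.44, adjusted p = 0.906). These differences were not particular to the top 10% spots, since H2-Eb1 stood at 721, 340, 40.7 and 61.7 CPM in the lower 50% spots. Reads of all hosts were aligned to the C57BL/6J genome, and the part of sequence differences between the hosts was not tested.

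Resident-type macrophage genes lay the other way, with a median of -1.08. Their summed levels overlapped between strains, at 396 and 964 CPM in CC075F1 against 603 and 1077 CPM in CC080F1. Ccl8, of the same list, had its highest level in a CC075F1 section. Fcrls stood at 29.7 and 26.0 CPM in CC075F1 and 93.6 and 97.1 CPM in CC080F1 (-1.54 ± 0.19, edgeR adjusted p = 0.906). Cbr2 stood at 3.19 and 6.56 against 25.0 and 50.9 CPM, and DESeq2 called both genes. The lower 50% spots also differed, with Fcrls at 19.8 and 16.6 against 92.5 and 93.2 CPM. The list summed to 366 and 250 against 537 and 505 CPM there. Ifi202b, an interferon-inducible DNA sensor gene (GRCm38 chromosome 1, 173962568 to 173982744), had 0 UMIs in both CC075F1 classes and stood at 49.7 and 52.0 CPM in CC080F1. With 3 UMIs as the most that a count of 0 allows, which is 0.368 and 0.340 CPM in the CC075F1 libraries and covers counting error only, it was at least 135-fold higher in CC080F1 (edgeR adjusted p = 0.140). It too was at 0 in the lower 50% spots of CC075F1 and at 31.1 and 43.7 CPM in those of CC080F1. Among matrix lists, the median log2 difference was -0.11 for the collagens and 0.89 for the proteoglycans, against -0.02 over all genes, and no member was called.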

How the data were processed

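The authors deposited raw UMI counts per gene and spot of tissue, made with Space Ranger 1.3.1 on the GRCm38 (mm10) 2020-A reference with no normalization, and spot positions. The submitters' notes also name Seurat 5.0.1. Spots under 5000 UMIs were left out. Counts were summed per class and section, filtered with filterByExpr and fitted in edgeR 4.0.16 (R 4.3.3) with TMM factors, section as a block and an adjusted p threshold of 0.05. Same-section deviations of the classes correlated at 0.38 to 0.63. DESeq2 1.42.0 and the other settings of the closing section were alternatives. The code was tested on simulated data. CPM are counts per 1000000 of the class sum, without TMM factors. Displayed section differences of genes are log2 CPM with TMM factors and a prior count of 2. They can therefore differ from the ratio of the CPM printed beside them. In CC075F1 replicate 2 the TMM factors were 0.866 for the top 10% spots and 0.691 for the spots they were compared with. Class sums held 7864849 to 84167282 UMIs. Members and the 35 gene lists were chosen with earlier results of these data known. The genes named had a mean of at least 10 CPM, 1 direction in all 4 sections and the largest differences, 12 up and 10 down (5 and 5 for the interaction), or belonged to a list. Gene positions came from GENCODE vM21.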

Additional observations from a re-analysis of the deposited data

Results flagged for a closer look

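The erythrocyte gene list was lower in the top 10% than in the lower 50% spots of both CC075F1 sections and higher in both CC080F1 sections, with log2 ratios of its summed CPM of -0.30 and -1.96 against 0.57 and 3.64, a mean difference of -3.23 between the strains. The fibroblast identity list split the same way at a much smaller size, with log2 ratios of -0.00234 and -0.0979 against 0.0457 and 0.164 and a mean difference of -0.155. Both splits are of plain CPM sums without TMM factors, and Vim and S100a4 were by far the most abundant members of the fibroblast list. The median log2 difference of its tested members, with TMM factors, was above 0 in all 4 sections (0.42, 1.63, 0.38 and 0.87). Neither difference was tested.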

How the results depend on the processing

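No gene was called between top 10% and lower 50% spots with library size alone, with no replicate block, with the top 5% or 20%, all other spots as comparison, a higher UMI minimum, the mean rank of the 5 genes, split UMIs or without skin, muscle or fat spots. It was 748 by DESeq2, 2 with no filter on low counts, 7 with interior spots, 7 with spots thinned to 5000 UMIs and 0 to 20 with 1 section left out. Chosen after seeing the data, interior spots of the other 3 sections gave 838, CC080F1 alone 560 and CC075F1 alone 7. The interaction gave 2 by DESeq2, 9 with no filter, 1 thinned and 0 to 306 with 1 section left out (306 without CC075F1 replicate 1). Top 10% spots between strains gave 3 with library size alone, 31 by DESeq2, 12 with no filter, 1 each with the top 20%, the mean rank and interior spots, and 0 to 228 with 1 section left out (228 without CC075F1 replicate 1). A block for the replicate number gave 22, but the labels do not say that the numbers pair the sections. Near against far gave 3 with library size alone, 9 by DESeq2, 45 with no filter, 0 with no replicate block (section as block removed), 0 with far spots at 5 or more steps, 3 without skin, muscle or fat spots, 0 with interior spots, 2 with those of the other 3 sections and 0 to 9 with 1 section left out (9 without CC075F1 replicate 2). The causes were not tested. The edge difference was 1.88 to 27.7 percentage points with 1 section left out, lowest without CC075F1 replicate 2. With 4 sections, an exact test cannot go below p = 0.125.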
